A study of Mus musculus with 22 samples.

Results

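Memory CD4+ T cells recovered from mouse lung after transfer were compared by their origin: cells labelled tissue ex-TRM, which trace back to tissue-resident memory (TRM) cells, against cells labelled tissue ex-Tcirc, which trace back to circulating memory cells. The comparison holds 2 RNA libraries on each side, 4 of the 22 samples of the study. It was described across the 1981 protein-coding genes whose mean level over these 4 libraries was at least 20 FPKM (a count of fragments corrected for gene length and for library size), out of 21400 protein-coding names and 55291 names of any kind. Just inside this minimum were Rac1 and Wbp2, with means of 20.001 and 20.003 FPKM, and just outside it were Cherp and Usp47, with 19.997 and 19.995. Membership rests on level alone and not on any difference between the groups.

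All 4 libraries are labelled as lung CD4+ T cells from female mice aged 6 to 10 weeks with Balb/c as the host strain. The study's design describes effector Th2 cells of OT-II creERT2 or DO11.10 T cell receptor transgenic mice, moved into recipients sensitized with ovalbumin (OVA). In one experiment tamoxifen was given to induce recombination by the Cre enzyme and cells were taken on day 49. In another, lung TRM and Tcirc cells of DO11.10 origin were moved again, into naive BALB/c-nu/nu hosts, and were examined on day 71 after a further OVA challenge. The nu/nu hosts lack a thymus and so have few T cells of their own. The labels do not say from which experiment the RNA libraries come, nor which promoter drives creERT2, nor whether the replicates came from separate animals. The p-values below therefore reflect library-to-library scatter alone, and some of that scatter may be technical. Cells were sorted on congenic markers and on CD69, between 3000 and 50000 cells per population.

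Resident memory T cells stay in a tissue without recirculating through blood. They are known for surface CD69, which holds the egress receptor S1PR1 inside the cell, and for a standing programme of receptor feedback genes, among them the Nr4a orphan nuclear receptors and the Rgs proteins that shorten signals of G protein-coupled receptors. Th2 memory cells in the lung are known for the transcription factor GATA3, for the alarmin receptor chain encoded by Il1rl1, and for the cytokines interleukin 4, 5 and 13 on restimulation.

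The libraries differed in depth along the line of the comparison. Relative depth, read from the steps between the lowest values, was 24.1% and 57.2% of the deepest library in ex-Tcirc replicates 1 and 2, against 100% and 90.1% in ex-TRM replicates 1 and 2. Protein-coding names held 10.2% and 10.5% of all FPKM in ex-Tcirc and 12.4% and 14.1% in ex-TRM. A 1-kb gene at 20 FPKM rested on about 57.4 and 132 fragment steps in ex-Tcirc and on 231 and 208 in ex-TRM. Depth, protein-coding share and origin cannot be told apart here. Ex-Tcirc replicate 1 also stood apart from the rest. Across the 1981 genes its log2 values had a Pearson correlation of 0.881 with ex-Tcirc replicate 2, whereas ex-Tcirc replicate 2 had 0.958 with each ex-TRM library and the ex-TRM pair had 0.971. These describe agreement across genes, which are not replicates. Ex-Tcirc replicate 1 was the lowest of the 4 libraries in 1469 of the 1981 genes and lay more than 2-fold from the mean of the other 3 in 141, while ex-Tcirc replicate 2 did so in 11. List medians and the leading genes below are therefore also given against ex-Tcirc replicate 2 alone, which is the fit without ex-Tcirc replicate 1.

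The CD4 T cell identity of the label was present in every library. Summed over 12 markers (among them Cd3e, Cd4, Lck and Thy1) the level was 4052 and 4842 FPKM in ex-Tcirc and 5115 and 5016 in ex-TRM. The CD8 genes Cd8a and Cd8b1 summed to at most 2.99 FPKM. Markers of other lung cells were highest in ex-Tcirc replicate 1, and this was so for B and plasma cells, macrophages, class II cells and epithelium. The 14 B and plasma cell markers summed to 423 FPKM there and to 28.2 to 72.2 in the other 3 libraries, nearly all of it immunoglobulin RNA, with Cd79a, Cd79b and Mzb1 at 0 in all 4 libraries. The 21 macrophage and monocyte markers summed to 492 FPKM in that library and 199 to 290 in the others, with Marco at 0 throughout. The 17 epithelial markers summed to 115 against 13.8 to 27.2, led by the surfactant gene Sftpc at 44.4 FPKM there and 3.48 or less elsewhere. The part of these RNAs in the differences described below was not tested. In bulk libraries like these, fewer cells of a type and less RNA per cell cannot be told apart.

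Most genes lay slightly higher in ex-TRM, and no gene passed the test. Of the 1981 genes 1706 (86.1%) had a positive log2 difference, with a median of 0.28 on the log2(FPKM + 1) scale. That median was 0.13 against ex-Tcirc replicate 2 alone, 0.07 once libraries were scaled to equal protein-coding sums, and 0.46 after median-of-ratios scaling. By limma with Benjamini-Hochberg adjustment over all 2818 names at or above the minimum, 0 names (0%) and 0 of the 1981 protein-coding genes (0%) reached an adjusted p under 0.05, and the smallest was 0.0968. At an unadjusted p under 0.05, 156 protein-coding genes (7.87%) were higher and 5 (0.252%) lower in ex-TRM. Differences are therefore described below by their size and by whether the libraries of the groups overlapped, and no gene is called changed.

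Both ex-TRM libraries lay above both ex-Tcirc libraries in 1119 genes (56.5%) and below both in 61 (3.08%), so a lack of overlap in the upward direction is the common state here and says little about any single gene. A stricter rule of size also asked for group means of FPKM + 1 at least 1.5-fold apart. It kept 190 genes higher (9.59%) and 7 lower (0.353%) in ex-TRM. In 61 of the 190 the ex-Tcirc mean was under 20 FPKM, so these entered through their level in ex-TRM. After scaling to equal protein-coding sums the rule kept 60 higher (3.03%) and 18 lower (0.909%). The narrowest set asked for the size rule under both scalings and for 1.5-fold from ex-Tcirc replicate 2 alone. It held 40 genes higher (2.02%) and 5 lower (0.252%), and is called the narrow set below. That set was defined after the values were seen. In 14 of the 40 the ex-Tcirc mean alone was under 20 FPKM, Nr4a2, Lrch4, Cd5, Il4ra, Wac, Pag1 and Pde4b among them. These passed the minimum through the group where they were high. The same held in the other direction for 3 of the 5 and, over all 1981 genes, for 266 with a low ex-Tcirc mean and 38 with a low ex-TRM mean. Genes of all levels entered it: by quartile of mean FPKM it held 6, 7, 16 and 11 genes higher in ex-TRM, from the lowest quartile (up to 24.8 FPKM) to the highest (56.1 to 1112).

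**Figure D1:**
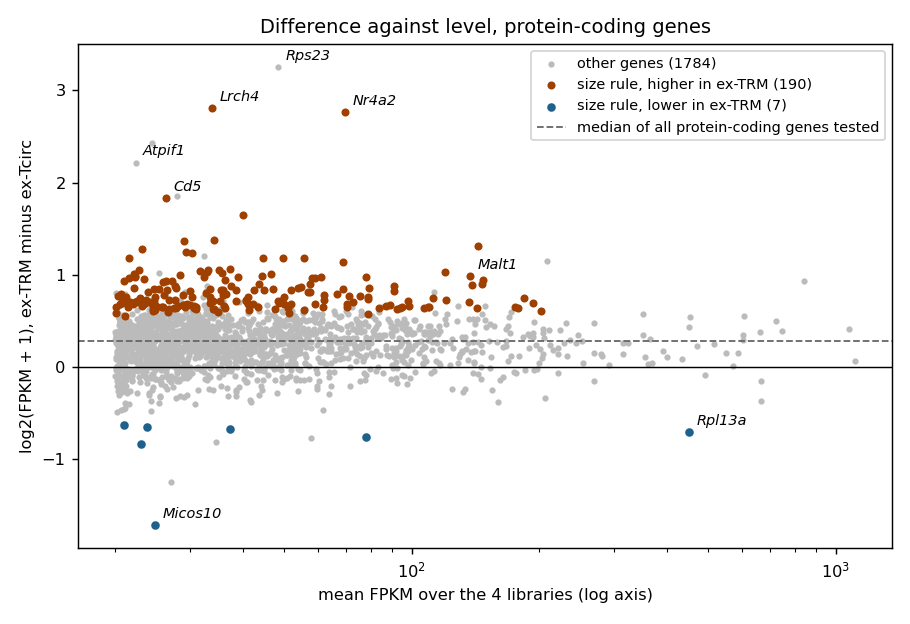
Log2(FPKM + 1) difference, ex-TRM minus ex-Tcirc, against mean FPKM over the 4 libraries on a log axis, 1 point per protein-coding gene tested (1981). The 190 genes higher and 7 lower by the size rule are coloured, and the dashed line at 0.28 is the median of all genes. Nr4a2 and Lrch4 lie at 2.76 and 2.80, while Rps23 and Atpif1 sit high because ex-Tcirc replicate 1 lists them at 0.

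**Figure D2:**
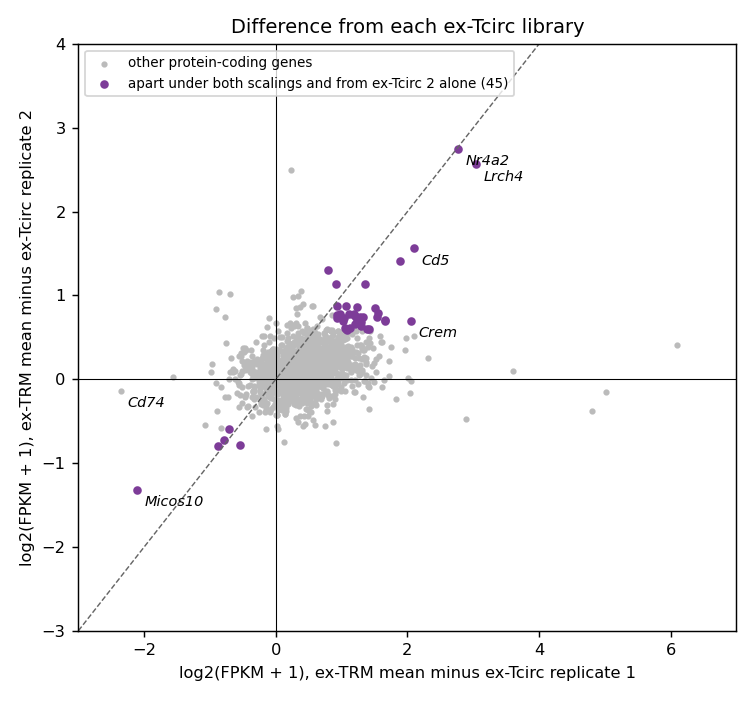
Mean log2(FPKM + 1) of the ex-TRM libraries minus ex-Tcirc replicate 1 (horizontal) and minus ex-Tcirc replicate 2 (vertical) for the 1981 genes. The dashed line marks equal differences and the 45 genes of the narrow set are coloured. Nr4a2, Lrch4 and Cd5 keep differences of 2.75, 2.56 and 1.56 against ex-Tcirc replicate 2 alone, and the median over all genes is 0.43 on the horizontal and 0.13 on the vertical axis.

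The 2 genes with the smallest adjusted p were Nr4a2, an orphan nuclear receptor induced early after receptor signalling, and Lrch4, a leucine-rich repeat membrane protein. Their promoters are printed here with that of Nr4a3, the sister gene of Nr4a2 and also in the narrow set, because the Nr4a genes are classical targets of CREB-family factors and the sequences show how they differ. Each runs from 250 bases before to 50 after the gene start in RefSeq (GRCm38.p6, the assembly behind mm10), 5′ to 3′ on the gene's strand. Capitals mark the core of the cyclic AMP response element, TGACG on either strand (CGTCA when read on the other), which is contained in the full site TGACGTCA.
Nr4a2 promoter, chr2:57123954-57124253, minus strand: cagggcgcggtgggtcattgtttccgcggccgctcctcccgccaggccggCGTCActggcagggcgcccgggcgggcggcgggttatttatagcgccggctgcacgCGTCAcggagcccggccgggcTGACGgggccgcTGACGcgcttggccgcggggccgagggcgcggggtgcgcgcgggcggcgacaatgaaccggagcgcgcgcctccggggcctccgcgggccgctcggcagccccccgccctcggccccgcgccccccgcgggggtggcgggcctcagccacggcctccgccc
Nr4a3 promoter, chr4:48045055-48045354, plus strand: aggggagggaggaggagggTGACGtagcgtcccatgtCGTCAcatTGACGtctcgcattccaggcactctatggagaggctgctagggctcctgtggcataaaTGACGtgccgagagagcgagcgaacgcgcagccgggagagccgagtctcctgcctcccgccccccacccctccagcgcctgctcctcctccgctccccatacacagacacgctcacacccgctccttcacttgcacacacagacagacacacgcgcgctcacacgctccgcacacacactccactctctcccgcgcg
Lrch4 promoter, chr5:137628873-137629172, plus strand: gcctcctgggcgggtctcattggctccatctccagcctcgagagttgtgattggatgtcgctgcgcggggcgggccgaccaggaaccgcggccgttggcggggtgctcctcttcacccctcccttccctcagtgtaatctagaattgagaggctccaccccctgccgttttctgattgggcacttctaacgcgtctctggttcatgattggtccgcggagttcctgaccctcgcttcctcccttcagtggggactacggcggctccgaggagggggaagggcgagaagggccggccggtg

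The Nr4a2 and Nr4a3 windows each held 4 cores, at 200 to 111 bases before the start in Nr4a2 and at 231 to 147 in Nr4a3, and the Lrch4 window held 0. None of these windows held the full site. At least 1 core was found in 6228 of 27025 genes with a promoter in the table (23.045%), in 651 of the 1614 tested protein-coding genes that had an entry (40.3%), in 64 of 148 genes higher by the size rule (43.2%) and in 11 of 28 in the narrow set (39.3%). The share among genes higher in ex-TRM thus lay near that of the tested genes as a whole. A match is a stretch of letters and not evidence of binding.

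Nr4a2 (chromosome 2, 57106830 to 57124003, minus strand) measured 16.8 and 17.2 FPKM in ex-Tcirc and 141 and 104 in ex-TRM. Both ex-Tcirc libraries sat together at the low end and neither ex-TRM library came near them. The log2 difference was 2.76 ± 0.21 (SE, 2 libraries a group, as in all values of this form below), with an adjusted p of 0.0968 by limma with Benjamini-Hochberg adjustment. The difference was 2.75 against ex-Tcirc replicate 2 alone and 2.55 after scaling to equal protein-coding sums. When the adjustment covered protein-coding genes only, limma with Benjamini-Hochberg adjustment gave 0.0170 for Nr4a2, and over all alternatives its adjusted p ran from 0.00503 to 0.9999, the highest from a fit that takes in the circulating libraries. Those circulating libraries listed Nr4a2 at 42.3 and 0 FPKM in ex-Tcirc and 0 and 22.01 in ex-TRM. The values of 0 say little about Nr4a2. Circulating ex-TRM replicate 1 also listed Trac at 0, and circulating ex-Tcirc replicate 2 also listed Il7r and Cxcr4 at 0. RefSeq also places the predicted gene LOC105244150 over the 5′ end of Nr4a2, which was not analysed here.

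Lrch4 (chromosome 5, 137629123 to 137641099, plus strand) measured 6.37 and 9.26 FPKM in ex-Tcirc and 64.6 and 55.2 in ex-TRM, a log2 difference of 2.80 ± 0.25 with an adjusted p of 0.101 by limma with Benjamini-Hochberg adjustment. The groups did not overlap, but the locus carries overlapping names. The lncRNA gene Gm20605 starts at the same base as Lrch4 and ends at 137642896, spanning it and most of its neighbour Sap25, which begins 373 bases past the end of Lrch4. Gm20605 went the other way, with 31.1 and 37.7 FPKM in ex-Tcirc and 11.2 and 1.38 in ex-TRM, a log2 difference of -2.70 ± 0.81. Sap25, below the minimum, measured 1.20 and 3.79 in ex-Tcirc and 26.8 and 45.1 in ex-TRM. Summed over the 3 names the locus stood at 38.6 and 50.7 FPKM in ex-Tcirc and at 103 and 102 in ex-TRM. The ratio of group means of FPKM + 1 was 2.26 for that sum, against 6.91 for Lrch4 alone and 1.56 for Lrch4 with Gm20605. FPKM of names with different lengths do not add exactly, so the sums serve only to show how the split of fragments among overlapping names bears on the size of the Lrch4 difference.

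**Figure D3:**
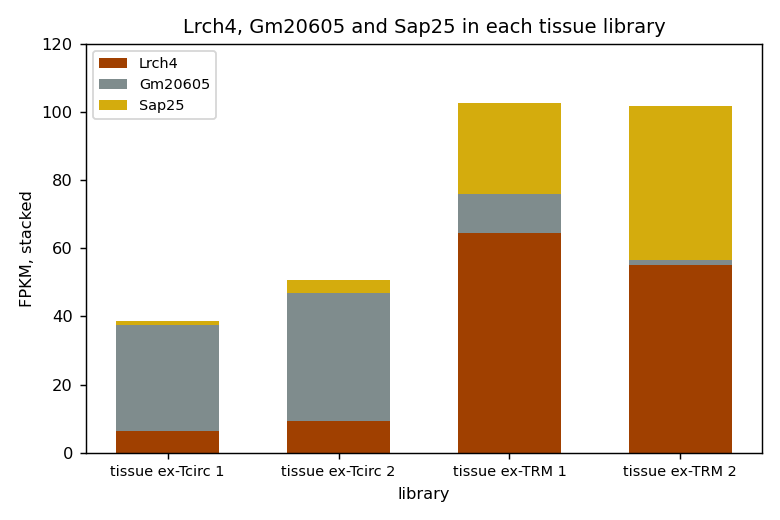
Stacked FPKM of Lrch4, the overlapping lncRNA name Gm20605 and the neighbour Sap25 in each of the 4 tissue libraries. Gm20605 makes up most of the bars of ex-Tcirc (31.1 and 37.7 FPKM) and Lrch4 most of those of ex-TRM (64.6 and 55.2).

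Of the other 44 genes of the narrow set, 7 overlapped another name above 0 in these libraries (Atp5d, Crem, Mprip, Nedd9, Sbf1, Ubl5 and Vps37b). Summed with those names their ratios of group means lay between 1.60 and 2.22. The remaining 37 genes had no such overlap in RefSeq.

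Nr4a2 is 1 of the immediate early and feedback genes, which are induced soon after antigen receptor signalling and some of which then restrain it. Of the 25 members tested, 22 lay above both ex-Tcirc libraries in both ex-TRM libraries (56.5% of all genes did) and 0 lay below, with 8 higher by the size rule (9.59% of all genes), and none was called. Their median log2 difference was 0.40, beside 0.28 for all protein-coding genes. Against ex-Tcirc replicate 2 alone it was 0.30 beside 0.13, and after scaling to equal protein-coding sums it was 0.19 beside 0.07.

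The 3 Nr4a genes all stood among those 8. Nr4a3 measured 88.5 and 112 FPKM in ex-Tcirc and 218 and 169 in ex-TRM, a log2 difference of 0.94 ± 0.25. Nr4a1, the family member used widely as a reporter of receptor signal strength, measured 129.9 and 165 in ex-Tcirc and 254 and 224 in ex-TRM, a difference of 0.70 ± 0.23. Neither overlapped, and both differences were well below the 2.76 of Nr4a2. The other 5 members past the size rule were Dusp2 and Dusp5, phosphatases that switch off MAP kinases, the transcription factors Klf10 and Csrnp1, and the kinase gene Plk3. Egr1, a zinc finger factor of the same early wave, was the 1 member of the 25 with a negative difference. It measured 65.0 and 88.1 FPKM in ex-Tcirc and 55.3 and 77.4 in ex-TRM, a difference of -0.21 ± 0.27 with overlapping groups. Dusp6, which acts on ERK, was likewise at 22.9 and 28.4 against 28.7 and 23.6.

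Several genes that damp or tune the T cell receptor were in the narrow set, with Cd5 the widest apart among them. Of 37 tested members of the receptor complex and signalling list, 29 lay above both ex-Tcirc libraries (56.5% of all genes did) and 1 below, 7 passed the size rule upward (9.59% of all genes), and none was called. Their median log2 difference was 0.40, or 0.19 against ex-Tcirc replicate 2 alone, beside 0.28 and 0.13 for all genes. The narrow set, defined after the values were seen, held 5 of the 37 (Cd5, Cd6, Cd28, Pag1 and Ptpn6), against 2.02% of all genes.

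Cd5, a surface brake on receptor signalling whose level tracks how strongly a T cell has been engaged, measured 8.85 and 13.3 FPKM in ex-Tcirc and 35.3 and 47.9 in ex-TRM. Both ex-TRM values stood far above the higher ex-Tcirc value. The log2 difference was 1.83 ± 0.29, or 1.56 against ex-Tcirc replicate 2 alone, with an adjusted p of 0.488 by limma with Benjamini-Hochberg adjustment. Cd6, its close relative and neighbour on the chromosome, measured 24.8 and 21.1 in ex-Tcirc and 40.4 and 56.2 in ex-TRM. For Cd6 the lower ex-Tcirc library was replicate 2, unlike most genes, and the difference against it alone was 1.14 beside 1.02 overall.

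Pag1, an adaptor that recruits the inhibitory kinase CSK to the membrane, measured 8.72 and 17.9 FPKM in ex-Tcirc and 28.8 and 30.9 in ex-TRM, a difference of 1.18 ± 0.36. Ptpn6, the phosphatase SHP-1, measured 22.4 and 40.2 in ex-Tcirc and 57.5 and 66.0 in ex-TRM, a difference of 1.01 ± 0.31. In both genes ex-Tcirc replicate 1 was far the lowest, and against replicate 2 alone the differences were 0.70 and 0.60. Cd6 and Ptpn6 fall outside the rule for named genes and were picked after their values were seen.

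The receptor chains themselves gave mixed values. Trac and Trbc2, which encode constant regions of the alpha and beta chains, lay above both ex-Tcirc libraries in both ex-TRM libraries, at 504 and 633 FPKM in ex-Tcirc and 753 and 653 in ex-TRM for Trac, and at 298 and 310 against 349 and 325 for Trbc2. RefSeq does not class them as protein-coding, so they are not among the 1981 genes. Trbc1, the other beta constant region, overlapped, at 2370 and 2754 against 2788 and 2714. Cd3d, a CD3 chain, measured 22.6 and 22.3 FPKM in ex-Tcirc and 19.7 and 19.2 in ex-TRM, a small difference downward (-0.20 ± 0.20) without overlap. Cd3g measured 248 and 292 in ex-Tcirc and 278 and 309 in ex-TRM, with overlapping groups (0.12 ± 0.22). Dgkz, a diacylglycerol kinase that also restrains receptor signals, overlapped too, at 39.4 and 29.9 against 28.9 and 35.2.

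Among costimulatory and inhibitory receptors the share past the size rule was above that of all genes in FPKM as deposited. Of 12 tested members 8 lay above both ex-Tcirc libraries (56.5% of all genes did), 0 below and 5 passed the size rule (Icos, Cd28, Ctla4, Cd40lg and Tnfsf8, against 9.59% of all genes), with a median of 0.53 beside 0.28 for all genes, or 0.28 beside 0.13 against ex-Tcirc replicate 2 alone. After scaling to equal protein-coding sums 1 of the 12 passed (Cd28, against 3.03% of all genes), with a median of 0.31 beside 0.07. Cd28, the main costimulatory receptor of T cells, measured 31.7 and 48.8 FPKM in ex-Tcirc and 78.7 and 77.3 in ex-TRM, a difference of 0.97 ± 0.25. Icos, its inducible relative, measured 19.1 and 25.7 in ex-Tcirc and 38.3 and 38.5 in ex-TRM, a difference of 0.77 ± 0.21. Both ex-TRM values were nearly equal in each of these genes and stood clear of both ex-Tcirc values. Ctla4, an inhibitory receptor, was at 16.4 and 29.3 in ex-Tcirc and 34.2 and 37.9 in ex-TRM, and its difference of 0.69 ± 0.30 dropped to 0.29 against ex-Tcirc replicate 2 alone. Pdcd1, which encodes PD-1, was at 19.7 and 28.6 against 26.2 and 27.97, with overlap, and so was the self-recognition ligand Cd47, at 30.9 and 55.0 against 38.8 and 47.4.

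Downstream of the receptor, Malt1 was the member of the NF-kB list with the highest difference. MALT1 is the protease of the complex that links the receptor to NF-kB. It measured 73.3 and 113 FPKM in ex-Tcirc and 191 and 173 in ex-TRM, a difference of 0.99 ± 0.27. Nfkbid, an atypical nuclear inhibitor of the pathway, measured 38.3 and 52.6 in ex-Tcirc and 89.3 and 68.0 in ex-TRM (0.78 ± 0.25). Neither gene overlapped. These 2 were the members past the size rule of 18 tested, a share close to the 9.59% of all genes, while 15 of the 18 lay above both ex-Tcirc libraries (56.5% of all genes did). Bcl10, the partner of MALT1 in that complex, did not separate the groups, at 24.3 and 21.9 against 23.8 and 24.8. The list median was 0.38 beside 0.28 for all genes, or 0.22 beside 0.13 against ex-Tcirc replicate 2 alone.

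Among cytokine receptor chains the clearest separation was that of Il4ra, the signalling chain shared by the receptors for interleukin 4 and interleukin 13. It measured 15.6 and 18.4 FPKM in ex-Tcirc and 43.4 and 39.9 in ex-TRM. The values of each group lay close together, and every ex-TRM value was above every ex-Tcirc value. The log2 difference was 1.25 ± 0.19, or 1.14 against ex-Tcirc replicate 2 alone and 1.04 after scaling to equal protein-coding sums, with an adjusted p of 0.488 by limma with Benjamini-Hochberg adjustment. Of 14 tested chains 8 lay above both ex-Tcirc libraries, a share near the 56.5% of all genes, and 5 passed the size rule (Il4ra, Il21r, Il2rb, Il18r1 and Tgfbr2, against 9.59% of all genes). Il21r, the specific chain for interleukin 21, measured 18.5 and 31.6 in ex-Tcirc and 43.8 and 51.6 in ex-TRM (0.95 ± 0.29).

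Other chains did not separate the groups. Il10ra was at 32.3 and 39.9 FPKM in ex-Tcirc and 27.9 and 32.9 in ex-TRM, and Il7r, which carries the survival signal of memory T cells, was at 99.1 and 111 against 121 and 94.9. Il2ra, the high-affinity chain for interleukin 2, was at 80.3 and 79.1 against 89.3 and 69.3. In all of these the groups overlapped. The median of the list was 0.32, or 0.09 against ex-Tcirc replicate 2 alone, close to the 0.28 and 0.13 of all genes.

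In the Jak, Stat and Socs list 6 of 12 tested members lay above both ex-Tcirc libraries (56.5% of all genes did). Of the 12, 3 passed the size rule (9.59% of all genes did), Stat3 and Socs2 among them. Stat3, which carries signals of interleukin 6, 10 and 21, measured 31.7 and 46.0 FPKM in ex-Tcirc and 74.8 and 67.1 in ex-TRM, a difference of 0.87 ± 0.24 or 0.61 against ex-Tcirc replicate 2 alone. Socs2, a feedback inhibitor, measured 40.1 and 75.0 in ex-Tcirc and 89.2 and 112 in ex-TRM, and its difference of 0.86 ± 0.34 dropped to 0.41 against that library alone. Stat5b, which carries interleukin 2 and 7 signals, overlapped, at 13.9 and 28.7 against 18.3 and 20.6. The list median of 0.46 became 0.12 without ex-Tcirc replicate 1, so its distance from the median of all genes rested on that library.

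The tissue residency list had the highest median of the 31 lists as deposited and after scaling to equal protein-coding sums, but not against ex-Tcirc replicate 2 alone. It was 0.57 for 25 tested members, beside 0.28 for all genes, and 0.36 beside 0.07 after that scaling. Against ex-Tcirc replicate 2 alone it was 0.26 beside 0.13, below the immediate early genes (0.30) and the costimulatory receptors (0.28). Of the 25, 17 lay above both ex-Tcirc libraries (56.5% of all genes did) and 1 below, 11 passed the size rule upward (9.59% of all genes did) and none was called. The 11 were Rgs1, Rgs2, Rgs3, Runx3, Litaf, Ctla4, Icos, Nr4a1, Tgfbr2, Skil and Crem. Lists share members: Rgs1, Rgs2, Runx3, Ctla4, Icos, Nr4a1, Tgfbr2 and Crem are also counted in other lists, so the list counts are not independent. After scaling to equal protein-coding sums 3 of the 25 passed the size rule upward (3.03% of all genes did). Rgs1, which shortens chemokine receptor signals, measured 56.7 and 70.8 FPKM in ex-Tcirc and 114 and 122 in ex-TRM, a difference of 0.88 ± 0.21 or 0.73 against ex-Tcirc replicate 2 alone. Rgs3, of the same protein family, measured 18.6 and 37.3 in ex-Tcirc and 56.6 and 66.0 in ex-TRM (1.18 ± 0.35, or 0.70 against that library alone). In both genes every ex-TRM value stood at least 1.5-fold above every ex-Tcirc value. Runx3, a transcription factor of resident CD8 cells, measured 24.9 and 51.6 in ex-Tcirc and 58.5 and 64.9 in ex-TRM, and its difference of 0.76 ± 0.36 was 0.25 against ex-Tcirc replicate 2 alone.

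Cd69, which names the resident population and was part of the sort, was at 92.8 and 156 FPKM in ex-Tcirc and 162 and 149.6 in ex-TRM. The groups overlapped, since only ex-Tcirc replicate 1 was low, and the difference of 0.37 ± 0.30 became -0.0049 against ex-Tcirc replicate 2 alone. Cxcr6, a chemokine receptor of tissue T cells, was at 60.7 and 72.7 in ex-Tcirc and 88.8 and 70.4 in ex-TRM, also with overlap. Itga4, the integrin alpha 4 chain, was the 1 member of the list below both ex-Tcirc libraries, at 38.0 and 46.5 against 37.6 and 34.6 (-0.21 ± 0.19). Itgb1, its beta chain partner, overlapped, at 47.2 and 56.9 against 42.0 and 61.4.

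Crem, a repressor and activator of cyclic AMP response genes, had the highest difference among the residency, bZIP and cyclic AMP lists. It measured 10.8 and 29.4 FPKM in ex-Tcirc and 51.2 and 45.5 in ex-TRM, a difference of 1.38 ± 0.45. The value of ex-Tcirc replicate 1 was the lowest of the 4 by far, and against replicate 2 alone the difference was 0.70. Of 17 tested genes of cyclic AMP and neuropeptide signalling 9 lay above both ex-Tcirc libraries (56.5% of all genes did) and 2 below, and 5 passed the size rule (Crem, Pde4b, Calca, Rgs1 and Rgs2, against 9.59% of all genes), with a median of 0.38 beside 0.28, or 0.20 beside 0.13 against ex-Tcirc replicate 2 alone. Pde4b, which breaks down cyclic AMP, measured 17.8 and 20.6 in ex-Tcirc and 33.0 and 39.4 in ex-TRM (0.88 ± 0.20), and was picked after its values were seen. Calca, which encodes the neuropeptide CGRP, measured 36.9 and 39.2 in ex-Tcirc and 110.1 and 41.5 in ex-TRM, so its difference of 0.82 ± 0.46 rested on ex-TRM replicate 1. Those below were Creb1, at 27.8 and 30.9 against 27.7 and 22.9, and Gpr183, an oxysterol receptor that guides lymphocytes, at 26.1 and 23.4 against 17.7 and 22.8. The AP-1 and bZIP factors as a list sat at the median of all genes (0.28), with 3 of 15 past the size rule (9.59% of all genes). Jund overlapped at 268 and 334 against 335 and 324.

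**Figure D4:**
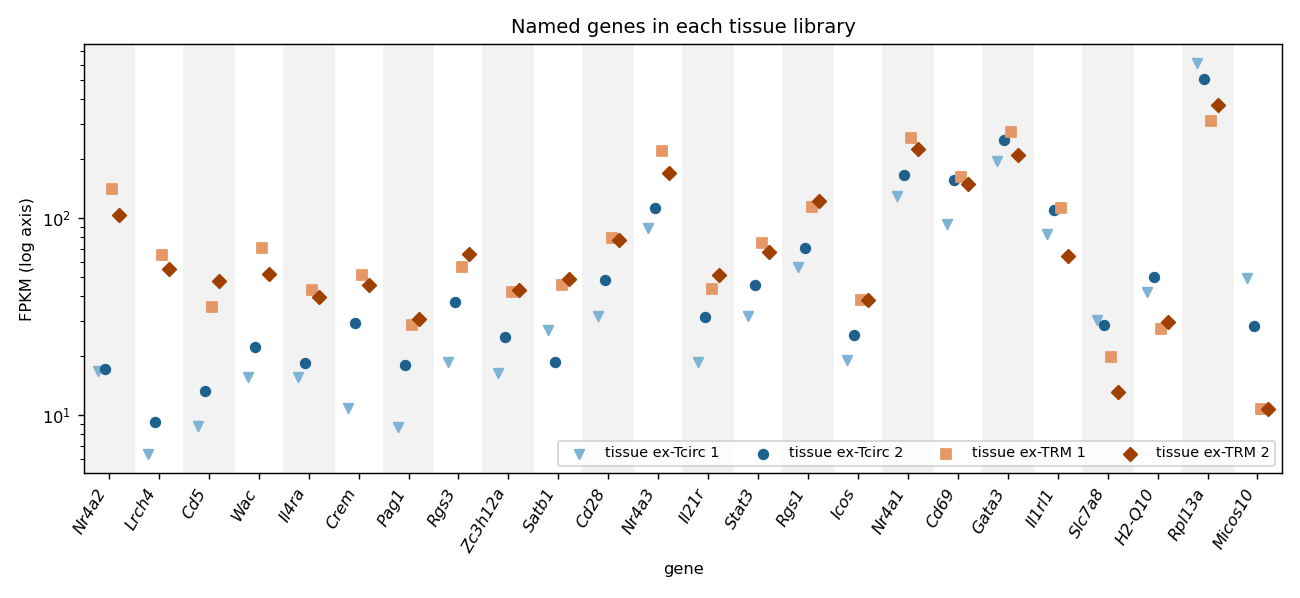
FPKM on a log axis of 24 named genes in the 4 tissue libraries, 1 symbol per library. From Nr4a2 to Nr4a1 both ex-TRM libraries lie above both ex-Tcirc libraries, at Cd69, Gata3 and Il1rl1 the groups overlap, and from Slc7a8 to Micos10 both ex-TRM libraries lie below.

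**Figure D5:**
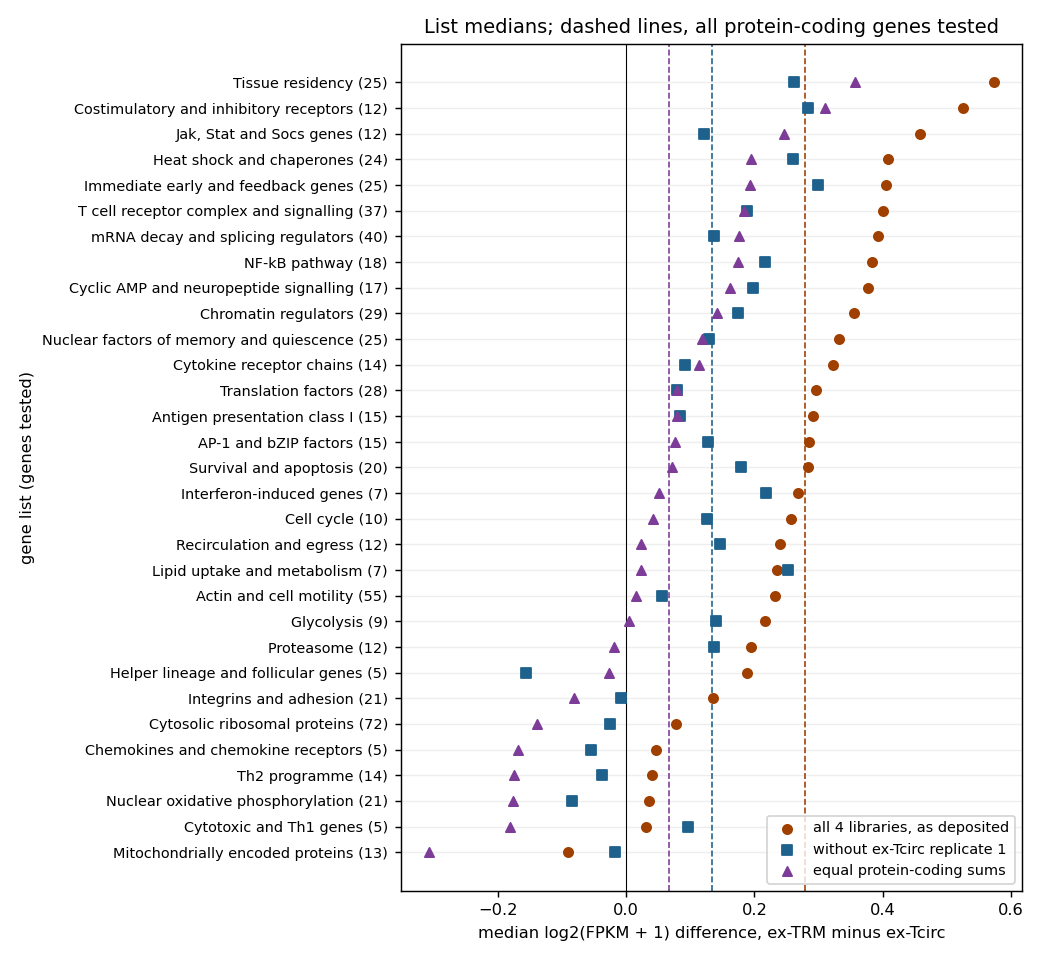
Median log2(FPKM + 1) difference, ex-TRM minus ex-Tcirc, of 31 gene lists with the number of genes tested in brackets, for all 4 libraries as deposited, without ex-Tcirc replicate 1, and after scaling to equal protein-coding sums. Dashed lines give the same medians over all 1981 genes (0.28, 0.13 and 0.07). The residency list is highest as deposited at 0.57, and the ribosomal, Th2 and mitochondrial lists lie to the left of the dashed lines.

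Few members of the Th2 programme lay higher in ex-TRM without overlap. Of 14 tested members 3 lay above both ex-Tcirc libraries (56.5% of all genes did) and 1 below (3.08%), and 1 passed the size rule (Calca, against 9.59% of all genes). The median was 0.04 beside 0.28 for all genes, -0.04 beside 0.13 against ex-Tcirc replicate 2 alone, and -0.17 beside 0.07 after scaling to equal protein-coding sums. The difference between this list and the feedback or residency lists was not tested. Gata3, the lineage factor, measured 194 and 249.6 FPKM in ex-Tcirc and 274 and 209.7 in ex-TRM, with overlapping groups and a difference of 0.12 ± 0.26. Il1rl1, the interleukin 33 receptor chain, measured 82.7 and 109.9 in ex-Tcirc and 112 and 64.0 in ex-TRM, and its sign was negative (-0.17 ± 0.33). The low and the high value of Il1rl1 among the 4 libraries both fell in ex-TRM. Csf2, the growth factor GM-CSF, measured 31.3 and 21.2 in ex-Tcirc and 44.4 and 34.4 in ex-TRM (0.58 ± 0.26) without overlap.

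The signature cytokines were below the minimum and were not tested. Il5 was at 12.0 and 12.3 FPKM in ex-Tcirc and 14.3 and 9.22 in ex-TRM, Il13 at 7.37 and 4.64 against 6.66 and 6.55, and both overlapped. Il4 separated the groups at low levels, with 0 and 3.85 FPKM in ex-Tcirc and 7.85 and 11.9 in ex-TRM. Ccr8, which Th2 cells use to follow a chemokine, was tested and separated the groups narrowly, with 43.7 FPKM in ex-Tcirc replicate 1, 66.6 in replicate 2 and 83.6 and 68.6 in ex-TRM.

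Factors of other helper fates gave mixed values. Tbx21, which encodes the Th1 factor T-bet, lay below the minimum at 7.79 and 14.4 FPKM in ex-Tcirc and 22.5 and 26.6 in ex-TRM. Its relative Eomes ran the other way, at 13.7 and 13.4 in ex-Tcirc and 2.51 and 5.29 in ex-TRM. Neither pair overlapped, and neither gene was part of the test. Of 5 tested cytotoxic and Th1 genes, Ctsw, a cathepsin of cytotoxic cells, and Runx3 passed the size rule (9.59% of all genes did). The chemokine gene Ccl5 ranged from 10.2 to 47.0 FPKM within ex-TRM alone. Maf, which supports interleukin 4 expression, overlapped, at 33.5 and 41.3 against 36.1 and 35.9.

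Genes linked to recirculation lay near all genes as a list. Of 12 tested members 7 lay above both ex-Tcirc libraries (56.5% of all genes did) and 1 below, with 2 past the size rule (Satb1 and Emb, against 9.59% of all genes). The median was 0.24 beside 0.28 for all genes, 0.15 beside 0.13 against ex-Tcirc replicate 2 alone, and 0.02 beside 0.07 after scaling to equal protein-coding sums. Satb1, a chromatin organizer of naive and memory T cells, measured 27.0 and 18.6 FPKM in ex-Tcirc and 45.8 and 49.3 in ex-TRM (1.05 ± 0.23, or 1.31 against ex-Tcirc replicate 2 alone). Klf2, the factor that drives egress receptor genes, measured 26.1 and 20.9 in ex-Tcirc and 31.0 and 28.4 in ex-TRM, and Tcf7, a factor of memory stemness, measured 35.0 and 43.4 in ex-Tcirc and 56.1 and 57.0 in ex-TRM. Both stood higher without overlap, by 0.33 ± 0.20 and 0.53 ± 0.19. The egress receptor gene S1pr1 was near the floor in all libraries, from 2.99 to 5.34. Cxcr4 overlapped, at 87.5 and 104 against 84.7 and 90.4.

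Outside the lists on T cell biology, Wac, a nuclear adaptor linked to histone H2B ubiquitination and autophagy, measured 15.6 and 22.1 FPKM in ex-Tcirc and 70.2 and 52.1 in ex-TRM (1.65 ± 0.25, or 1.41 against ex-Tcirc replicate 2 alone). Slc3a2, the heavy chain of an amino acid transporter, measured 36.0 and 40.3 in ex-Tcirc and 70.5 and 68.7 in ex-TRM (0.85 ± 0.17). Sytl2, a vesicle trafficking protein, measured 38.8 and 40.5 in ex-Tcirc and 81.9 and 68.5 in ex-TRM (0.90 ± 0.19). Slc3a2 had small spreads within both groups, those of Wac and Sytl2 were wider in ex-TRM, and none of the 4 libraries crossed over.

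Chromatin and RNA regulators had medians not far from that of all genes. Of 29 tested chromatin regulators 23 lay above both ex-Tcirc libraries (56.5% of all genes did), 0 below and 5 passed the size rule (Eed, Kdm6b, Brd2, Chd3 and Satb1, against 9.59% of all genes), with a median of 0.36 beside 0.28, or 0.17 beside 0.13 against ex-Tcirc replicate 2 alone. Eed, a core subunit of Polycomb repressive complex PRC2, measured 20.04 and 22.99 FPKM in ex-Tcirc and 43.3 and 42.9 in ex-TRM (0.97 ± 0.17). Brd2, a reader of acetylated histones, was at 51.0 and 115 in ex-Tcirc and 159 and 155 in ex-TRM, and its difference of 1.03 ± 0.40 dropped to 0.45 against ex-Tcirc replicate 2 alone. Of 40 tested regulators of mRNA decay and splicing 29 lay above (56.5% of all genes did), 0 below and 4 passed the size rule (Zc3h12a, Hnrnpk, Hnrnpa1 and Srsf3), near the 9.59% of all genes, with a median of 0.39 beside 0.28, or 0.14 beside 0.13 against ex-Tcirc replicate 2 alone. Zc3h12a, the ribonuclease Regnase that degrades cytokine and activation transcripts in T cells, measured 16.3 and 25.1 in ex-Tcirc and 42.1 and 43.2 in ex-TRM (1.04 ± 0.24). Cnot6l, a deadenylase, overlapped, at 33.4 and 50.5 against 43.1 and 26.7.

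Chaperone genes, which also respond to tissue digestion and sorting, had 17 of 24 tested members above both ex-Tcirc libraries (56.5% of all genes did), 0 below and 3 past the size rule (Hsph1, Fkbp4 and Stip1, near the 9.59% of all genes), with a median of 0.41 beside 0.28, or 0.26 beside 0.13 against ex-Tcirc replicate 2 alone. The stress-inducible Hspa1a varied more within ex-TRM than between groups, at 181 and 166 FPKM in ex-Tcirc and 241 and 115 in ex-TRM. Hspa1b gave the same order, at 197 and 184 against 266 and 131. Actin and motility genes, with 55 tested, sat at a median of 0.23 beside 0.28, or 0.06 beside 0.13 against ex-Tcirc replicate 2 alone. Only Arpc5 passed the size rule (9.59% of all genes did), at 24.2 and 24.0 against 38.1 and 37.6.

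Genes lower in ex-TRM were few. Micos10, a subunit of the mitochondrial complex that shapes cristae, measured 49.6 and 28.2 FPKM in ex-Tcirc and 10.7 and 10.8 in ex-TRM. The ex-TRM libraries were nearly equal while replicate 1 was well above replicate 2 in ex-Tcirc, and the groups did not overlap. Its log2 difference of -1.71 ± 0.32 was the lowest of the 1981 genes, with an adjusted p of 0.488 by limma with Benjamini-Hochberg adjustment, and it was -1.32 against ex-Tcirc replicate 2 alone. H2-Q10, a nonclassical class I gene known best from liver, measured 42.3 and 50.0 in ex-Tcirc and 27.3 and 29.9 in ex-TRM (-0.67 ± 0.18). H2-Q10 belongs to a family of near-identical class I genes, so its fragments may be shared with other members.

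Slc7a8, an amino acid transporter chain that pairs with the product of Slc3a2, measured 30.5 and 28.7 FPKM in ex-Tcirc and 19.8 and 13.2 in ex-TRM (-0.84 ± 0.26). Slc7a8 and Slc3a2 thus lay in opposite directions. Rnaseh2c, a subunit of a nuclease that removes ribonucleotides from DNA, measured 30.3 and 28.04 in ex-Tcirc and 19.5 and 17.1 in ex-TRM (-0.65 ± 0.19). Rpl37rt, a retrotransposed copy of a ribosomal gene and therefore uncertain, measured 98.6 and 94.2 in ex-Tcirc and 78.4 and 40.6 in ex-TRM. These 5 genes make up the lower side of the narrow set. Ndufb8, a complex I subunit, passed the size rule downward as well, at 30.6 and 21.2 against 16.3 and 15.9, but its difference of -0.63 ± 0.26 was -0.38 against ex-Tcirc replicate 2 alone. Irf3, which induces type I interferon, lay lower without reaching the size rule, at 30.0 and 27.7 against 20.7 and 23.02.

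Rpl13a, a protein of the large ribosomal subunit, was the most abundant gene of the 7 lower by the size rule. It measured 608 and 509.6 FPKM in ex-Tcirc and 312 and 372 in ex-TRM (-0.71 ± 0.24, or -0.58 against ex-Tcirc replicate 2 alone). As a list, the 72 tested ribosomal protein genes had a median of 0.08, or -0.03 against ex-Tcirc replicate 2 alone and -0.14 after scaling to equal protein-coding sums, each below the median of all genes. Of the 72, 13 lay above both ex-Tcirc libraries (56.5% of all genes did) and 15 below (3.08% of all genes), so they held 15 of the 61 genes without overlap in that direction. By the size rule 3 were higher (Rpl31, Rps24 and Rps27a) and 1 lower, against 9.59% and 0.353% of all genes. Single members were unstable between the ex-Tcirc libraries: Rps23 was listed at 0 in replicate 1 and at 50.7 in replicate 2, and Rps27a was at 32.6 and 5.95. Ribosomal genes have many processed copies, and how fragments were split among them is not given in the sources used here.

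Genes of oxidative phosphorylation lay below all genes as lists. The 21 tested nuclear genes had a median of 0.04 beside 0.28, -0.08 beside 0.13 against ex-Tcirc replicate 2 alone and -0.18 beside 0.07 after scaling to equal protein-coding sums. Of these, 6 lay above both ex-Tcirc libraries and 5 below, against 56.5% and 3.08% of all genes. The 13 genes for mitochondrially encoded proteins, tested in the same fit though not matched as protein-coding in the table, had a median of -0.09, -0.02 against ex-Tcirc replicate 2 alone and -0.31 after that scaling, with 1 above and 4 below. The 1 above was mt-Co1, with 633 and 640.0 FPKM in ex-Tcirc and 654 and 676 in ex-TRM. Among the 4 below was mt-Nd1, with 350.5 and 338.6 in ex-Tcirc and 315 and 327 in ex-TRM. Of 9 glycolysis genes 5 lay above, near the share of all genes, and 0 below, with the glucose transporter gene Slc2a3 alone past the size rule, at 16.4 and 22.3 against 29.3 and 31.9. Ldha overlapped, at 95.7 and 97.95 against 110.0 and 95.5.

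The remaining lists gave these values, where 9.59% of all genes passed the size rule upward. Of 20 tested survival and apoptosis genes 12 lay above both ex-Tcirc libraries (56.5% of all genes did) and 3 passed the size rule, all of them Gimap genes (Gimap4, Gimap6 and Gimap8), which encode GTPases of lymphocyte survival. Gimap6 measured 44.5 and 67.1 FPKM in ex-Tcirc and 89.3 and 89.5 in ex-TRM (0.70 ± 0.25, or 0.41 against ex-Tcirc replicate 2 alone). The 25 nuclear factors of memory and quiescence had a median of 0.33 and 1 member past the size rule (Runx3), the 28 translation factors 0.30 and 1 (Eif3e), the 15 class I presentation genes 0.29 and 0. The 7 interferon-induced genes tested had a median of 0.27, and the 10 cell cycle genes 0.26, with Pcna and H2az1 past the size rule. Of 21 integrin and adhesion genes 5 lay above and 2 below (56.5% and 3.08% of all genes did), with a median of 0.13, and Itgav, the integrin alpha V chain, stood at 11.5 and 19.97 in ex-Tcirc and 27.3 and 29.6 in ex-TRM. The 12 proteasome genes had a median of 0.19 and the 5 chemokine and chemokine receptor genes 0.05.

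Genes with the shortest loci had the lowest median difference. By quartile of locus length, from under 10.9 kb to over 66.4 kb, the median log2 difference was 0.21, 0.29, 0.30 and 0.30. Against ex-Tcirc replicate 2 alone it was 0.05, 0.14, 0.15 and 0.16. After scaling to equal protein-coding sums it was -0.005, 0.08, 0.09 and 0.09. The part of locus length in the list medians was not tested. Markers of other lung cells were tested in 5 cases among the macrophage and class II lists, and in each the groups overlapped. Cd74, the class II invariant chain, measured 68.3 and 13.9 FPKM in ex-Tcirc and 9.43 and 16.5 in ex-TRM, and Apoe measured 116 and 37.8 against 39.9 and 37.3. In each of these ex-Tcirc replicate 1 alone was high, and the differences of -1.25 ± 0.75 and -0.77 ± 0.52 were -0.14 and 0.03 against ex-Tcirc replicate 2 alone. The other 3 were near 0 overall. Lyz2, the macrophage lysozyme gene, measured 114 and 29.7 against 49.7 and 77.5, a difference of 0.09 ± 0.64 that was 1.04 against ex-Tcirc replicate 2 alone. Ctss, a cathepsin of antigen-presenting cells, measured 56.2 and 19.04 against 25.8 and 41.3, and its difference of -0.0080 ± 0.53 was 0.75 against that library alone. Ccr2, a chemokine receptor of monocytes and of some T cells, measured 59.0 and 68.2 against 70.7 and 60.8.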

How the data were processed

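Sequencing libraries were made with a strand-specific kit from total RNA of sorted cells and read as pairs, per the labels' protocols. The deposited values are FPKM per gene name, made by the authors and given as such per the file headers. StringTie 3.0.1, HISAT2 2.2.1 and Trim Galore 0.6.7 appear, with genome build mm10, in the submitters' processing notes. Which annotation and strand setting served is not given in the sources used here. Sample titles gave the groups and the replicate numbers. Values of a repeated name were summed, and 39152 of 55291 names (70.8%) matched RefSeq GRCm38.p6, which gave biotypes and coordinates. Names with a mean of at least 20 FPKM over the 4 libraries (2818) entered limma 3.58.1 in R 4.3.3 on log2(FPKM + 1) with an intensity trend, two-sided, with Benjamini-Hochberg adjustment over all of them. The fit was tested on simulated data. A log2 difference on this scale understates the change of low genes. Depth was read from the spacing of low values, since total counts are not part of the files. No library was identical to another. The exact permutation test of a single gene cannot pass 0.05 with 2 libraries against 2.

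Named genes were the 10 without overlap and with the smallest p in each direction, the 10 highest and lowest by the size rule and above 0 in all libraries, the 2 highest and 2 lowest tested members of each gene list, and 20 fixed genes. The comparison, the members and the lists were chosen with earlier results of these data known. Alternatives covered the pseudocount, the minimum, scaling, adjustment, the samples in the fit, a replicate block and each library left out. The 14 ATAC samples and, except for single values, the 4 circulating RNA libraries were not used here. The values of 1 gene are not reported here.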

Additional observations from a re-analysis of the deposited data

How the results depend on the processing

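With all biotypes adjusted together and FPKM as deposited, limma with Benjamini-Hochberg adjustment called 0 names. It called 5 names (3 protein-coding) after median-of-ratios scaling, 3 (2 protein-coding) with TPM rescaled from FPKM, 3 (2 protein-coding) with a replicate block, and 1, the lncRNA name Gm15564 seen in 1 library only, with all 8 RNA libraries. Adjusting over protein-coding genes alone called 2, with or without scaling to equal protein-coding sums (the scaled form was added after seeing the data). Nr4a2 and Lrch4 were the protein-coding calls in each of these fits except that with all 8 libraries, joined by Rps23 after median-of-ratios scaling. The labels do not say whether same-numbered libraries belong together. Deviations of same-numbered libraries correlated at 0.0334 across 2818 genes, but 2 pairs cannot decide whether they were paired. Leaving out 1 library gave 0 to 443 names and 0 to 358 protein-coding genes called. The highest counts came without ex-Tcirc replicate 2, where replicate 1 alone stands for its group and is assumed to vary like the ex-TRM libraries. Genes higher by the size rule numbered 190, and 2436, 605, 368 and 62 with no minimum or a minimum of 5, 10 or 50 FPKM, 60 with equal protein-coding sums, 395 with TPM, and 83 to 658 with a library left out (83 without ex-Tcirc replicate 1, 658 without replicate 2). Genes lower numbered 7, and 402, 62, 18 and 2 with those minimums, 3 after median-of-ratios scaling, 18 with equal protein-coding sums, 2 with TPM, and 8 to 28 with a library left out. The narrow set, added after seeing the data, held 40 and 5. Of 140 named genes tested, 27 changed sign without ex-Tcirc replicate 1, 19 with equal protein-coding sums and 22 after median-of-ratios scaling, none of them called. Pseudocounts of 0.1 and 5 changed no sign or call among these genes. Depth limits the ex-Tcirc side most, at 24.1% and 57.2% of the deepest library.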

Other observations

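Among names not matched as protein-coding, Gm17300 had the smallest p, with an adjusted p of 0.101 by limma with Benjamini-Hochberg adjustment. Its level was 84.5 and 59.97 FPKM in the ex-Tcirc libraries of the lung and 13.6 and 11.4 in those of ex-TRM, without overlap. The lncRNA name Gm15564 was listed at 1026 FPKM in tissue ex-TRM replicate 1 and at 0 in each of the other 7 RNA libraries. The small nucleolar RNA Snora73b was listed at 0 in ex-Tcirc replicate 1 and at 194, 287 and 190.3 FPKM in the remaining tissue libraries.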
